A study of Mus musculus with 9 samples.

Results

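The 39 genes described here encode proteins that build the mitotic spindle, attach chromosomes to it and divide the cell, and they were chosen by name from the 55536 genes of the expression table. They fall into 8 roles, from the kinases and cyclins of mitotic entry to the proteins of cytokinesis. RNA was sequenced from mouse acute myeloid leukemia (AML) cells in 9 libraries of 3 groups, each of 3 libraries. The AML-WT leukemia gave a c-kit- and a c-kit+ group (WT c-kit- and WT c-kit+), and the remaining group was labelled AML-IRF7-/- c-kit+ (the libraries labelled IRF7-/-). In all groups, marrow progenitors had been transformed with a retrovirus that carries the fusion oncogene MLL-AF9 and the marker GFP, and GFP+ leukemia cells were given to unirradiated C57BL/6J hosts aged 6 to 8 weeks, 1000000 cells per mouse. Leukemia cells were sorted from the marrow on day 18. The transformed cells came from wild-type mice or from IRF7-/- mice, in which a cassette replaces part of the gene of the interferon regulatory factor IRF7 in every cell, and the hosts kept their own blood cells. c-Kit is a growth factor receptor that marks the immature cells of this leukemia. The WT libraries compare cells with and without this marker, and the c-kit+ libraries compare genotypes. The labels do not say whether the 3 libraries of a group came from separate mice, so p-values measure only the spread between these libraries.

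Most of these genes are silent in resting cells and are transcribed together late in the cell cycle, after the genes of DNA replication. CDK1 with its cyclins starts mitosis, the kinetochore ties each chromosome to spindle microtubules, and the spindle checkpoint holds back the anaphase-promoting complex until every chromosome is attached. The complex then has securin and the cyclins destroyed, the sister chromatids part, and the centralspindlin and Aurora B machinery completes cytokinesis.

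The deposited values are TPM, a measure of transcript abundance, which are adjusted for gene length and for the sum of each library. The libraries summed to between 987468 and 992231, so depth is unknown. Kit was at 0.52 to 3.03 TPM in the WT c-kit- libraries, at 50.7 to 58.5 TPM in WT c-kit+ and at 70.3 to 85.7 TPM in the libraries labelled IRF7-/-. Irf7 was at 22.3 to 32.3 TPM, 3.36 to 5.31 TPM and 5.97 to 12.8 TPM in the same order. All 3 libraries labelled IRF7-/- therefore held more Irf7 than each WT c-kit+ library, against their label, although a gene-level value also counts reads of the exons that the cassette leaves in place. The T cell markers summed to at most 5.18 TPM in each library, with Cd3e at 0 to 0.22 TPM. Lck, another of them, was at 0.19 to 1.41 TPM in WT c-kit- and at 0.47 to 0.98 TPM in WT c-kit+. In the libraries labelled IRF7-/-, Lck was at 1.17 to 3.68 TPM. Of the 7 B cell markers 5 were under 2 TPM in every library, and Ighm carried most of a sum of 404 to 493 TPM in WT c-kit-, 143 to 170.4 TPM in WT c-kit+ and 87.6 to 163 TPM in the libraries labelled IRF7-/-. The 4 NK cell markers summed to 3.78 to 5.05, 137 to 193 and 89.9 to 166 TPM in the same order, with Nkg7 making up nearly all of both c-kit+ groups and the other 3 at most at 2.96 TPM. Of the red cell genes, the transferrin receptor gene Tfrc was at 10.2 to 18.1, 35.3 to 45.4 and 40.1 to 54.6 TPM, and the globin genes Hba-a1, Hba-a2, Hbb-bs and Hbb-bt were at most at 6.68 TPM. The 6 endothelial and stromal markers summed to 128 to 159, 59.6 to 70.1 and 124 to 157 TPM, mostly from Pecam1 and Lepr, and the 4 megakaryocyte markers to at most 12.9 TPM. The part of such cells in the values below was not tested. The 10 most abundant genes of each library held 13.1% to 17.3% of its TPM in WT c-kit+ and 9.39% to 10.3% in the other libraries. Such a load lowers the TPM of all other genes.

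Promoter sequences show a feature that many of these genes share and that their choice did not use. Late cell cycle genes often carry a CHR element, which MuvB-type complexes bind, together with CCAAT boxes, which NF-Y binds. RefSeq (GRCm38.p6) held promoter windows, from 250 bases before to 50 bases after the start, for 34 of the 39 genes. They gave 36 windows, since Ect2 and Prc1 have a pair of starts each. Aurkb, Ccna2, Incenp, Kif20a and Tpx2 had no entry. CHR was searched as TTTGAA or TTCGAA and CCAAT by those letters, both on either strand, and each motif was counted on its own also where matches overlapped. A CHR match lay between 100 bases before the start and the end of the window in 28 of the 36 windows (77.8%), against 3 of 53 windows (5.66%) from a list of 54 DNA replication genes, 44 of which had an entry, and 8.59% of all 32851 promoter windows. A CCAAT box was in 26 windows (72.2%) of the mitotic genes, in 54.7% of those of the replication genes and in 37.4% of all. A CHR match in that stretch near the start, together with a CCAAT box anywhere in the window, was in 66.7%, 5.66% and 3.42% of the windows, in the same order.

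**Figure D1:**
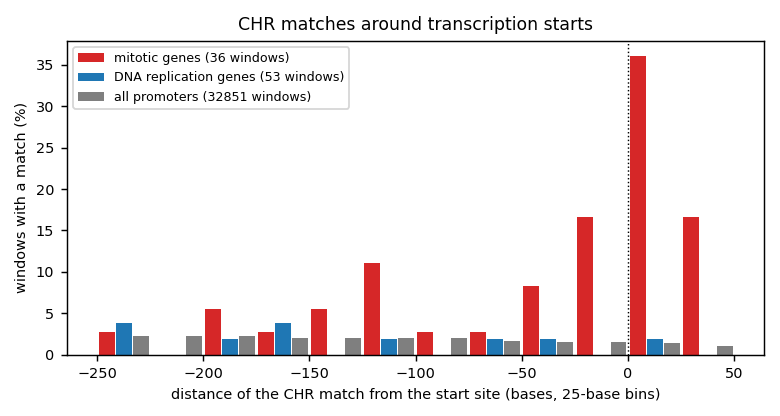
Share of promoter windows (%, vertical axis) with a CHR match in each 25-base bin of distance from the start site (horizontal axis, bases), for mitotic genes (red), DNA replication genes (blue) and all promoters (grey). The matches of the mitotic genes gather around the start, while the share of all promoters falls from 2.30% in the bin farthest upstream to 1.06% in the last bin.

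The promoters of 6 genes are printed as examples of windows with and without the motifs, among genes that passed the test in at least 1 comparison below. The first 3 belong to Cdk1, Ccnb2 and Racgap1 and hold both motifs, and the others belong to Mad2l1, Nuf2 and Pttg1 and hold neither. Each runs from 100 bases before the start to 20 bases into the gene, 5′ to 3′ on the gene's own strand. Capitals mark CHR matches (TTTGAA) and CCAAT boxes, the latter also as ATTGG on the reverse strand.
Cdk1 (chr10:69352893-69353012, minus strand): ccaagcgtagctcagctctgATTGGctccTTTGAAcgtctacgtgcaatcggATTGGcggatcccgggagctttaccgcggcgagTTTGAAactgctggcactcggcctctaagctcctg
Ccnb2 (chr9:70421535-70421654, minus strand): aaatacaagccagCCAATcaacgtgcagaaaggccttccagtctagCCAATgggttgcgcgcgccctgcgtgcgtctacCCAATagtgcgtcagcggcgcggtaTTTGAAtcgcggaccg
Racgap1 (chr15:99651637-99651756, minus strand): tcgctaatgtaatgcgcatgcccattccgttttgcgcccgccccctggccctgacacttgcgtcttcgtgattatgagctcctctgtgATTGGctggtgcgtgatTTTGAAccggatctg
Mad2l1 (chr6:66535121-66535240, plus strand): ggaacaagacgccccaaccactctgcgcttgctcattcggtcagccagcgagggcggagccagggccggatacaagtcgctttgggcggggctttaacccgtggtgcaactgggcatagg
Nuf2 (chr1:169531445-169531564, minus strand): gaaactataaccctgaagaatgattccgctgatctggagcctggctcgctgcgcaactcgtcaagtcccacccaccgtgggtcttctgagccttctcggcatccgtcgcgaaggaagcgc
Pttg1 (chr11:43425962-43426081, minus strand): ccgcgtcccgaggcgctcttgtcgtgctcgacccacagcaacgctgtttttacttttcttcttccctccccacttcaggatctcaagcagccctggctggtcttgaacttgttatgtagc
The CHR match of Cdk1 nearest to the start begins 15 bases before it, and those of Ccnb2 and Racgap1 begin 4 and 5 bases after it. In the whole windows Birc5 and Nusap1 also lacked both motifs. The absence of a match says only that these letters are not in the window, and the RefSeq starts used lie 169 bases (Mad2l1) and 270 bases (Pttg1) from the gene starts of GENCODE M21. Larger gaps were found for Kif2c (3867 bases), Cdca8 (2394 bases) and Kif4 (328 bases).

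All 39 genes were expressed in every library. Top2a, a topoisomerase that untangles chromosomes, had the highest mean over the 9 libraries, at 219.7 TPM, followed by Cdk1 at 182 TPM and the ubiquitin-conjugating enzyme gene Ube2c at 157 TPM. Cenpf, a kinetochore protein gene, had the lowest at 15.05 TPM. Between its highest and its lowest library a gene differed by 1.26-fold (Birc5) to 2.13-fold (Kif15), with a median of 1.55-fold, and 38 of the 39 genes stayed within 2-fold over all libraries. The summed level was 2247 to 2761 TPM in WT c-kit-, 2414 to 2959 TPM in WT c-kit+ and 2714 to 3166 TPM in the libraries labelled IRF7-/-, so the ranges overlapped. By mean TPM, the group labelled IRF7-/- was the highest for 25 genes and WT c-kit- the lowest for 30. These ranks were not counted over all genes. The libraries labelled IRF7-/- had a positive log2 fold change against WT c-kit+ in 26 of the 39 genes and in 8089 of 13238 genes tested. Against WT c-kit- these counts were 33 of 39 and 7032 of 13510. For WT c-kit+ against WT c-kit- they were 32 of 39 and 5551 of 13261.

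Within each group the genes moved together between libraries. In WT c-kit-, library 1 was the highest of the 3 for 35 of the 39 genes (89.7%) and library 3 the lowest for 35, against 36.6% and 42.6% of 13962 expressed genes. In WT c-kit+, library 2 was the lowest for 36 genes (92.3%, against 33.2% of expressed genes), and library 1 was the highest for 30. In the group labelled IRF7-/-, library 2 was the highest for 35 genes, against 39.3% of expressed genes. Among the 54 DNA replication genes, WT c-kit- library 3 was also the lowest for 83.3%, while library 1 was the highest for 27.8%. WT c-kit+ library 2 was the lowest for 57.4% of them, and library 2 of the group labelled IRF7-/- the highest for 37.0%. The mean log2(TPM + 1) of the 39 genes was 5.84, 5.69 and 5.53 in WT c-kit- libraries 1, 2 and 3, 5.94, 5.66 and 5.86 in WT c-kit+, and 5.87, 6.05 and 5.83 in the libraries labelled IRF7-/-. Each group's range, 0.22 to 0.31, was larger than the steps between neighbouring group means of 5.69, 5.82 and 5.92. For the replication genes the within-group ranges were 0.19, 0.06 and 0.06 around means of 5.53, 5.76 and 6.13, and the groups did not overlap. In bulk samples a smaller share of dividing cells and less RNA per dividing cell cannot be told apart.

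**Figure D2:**
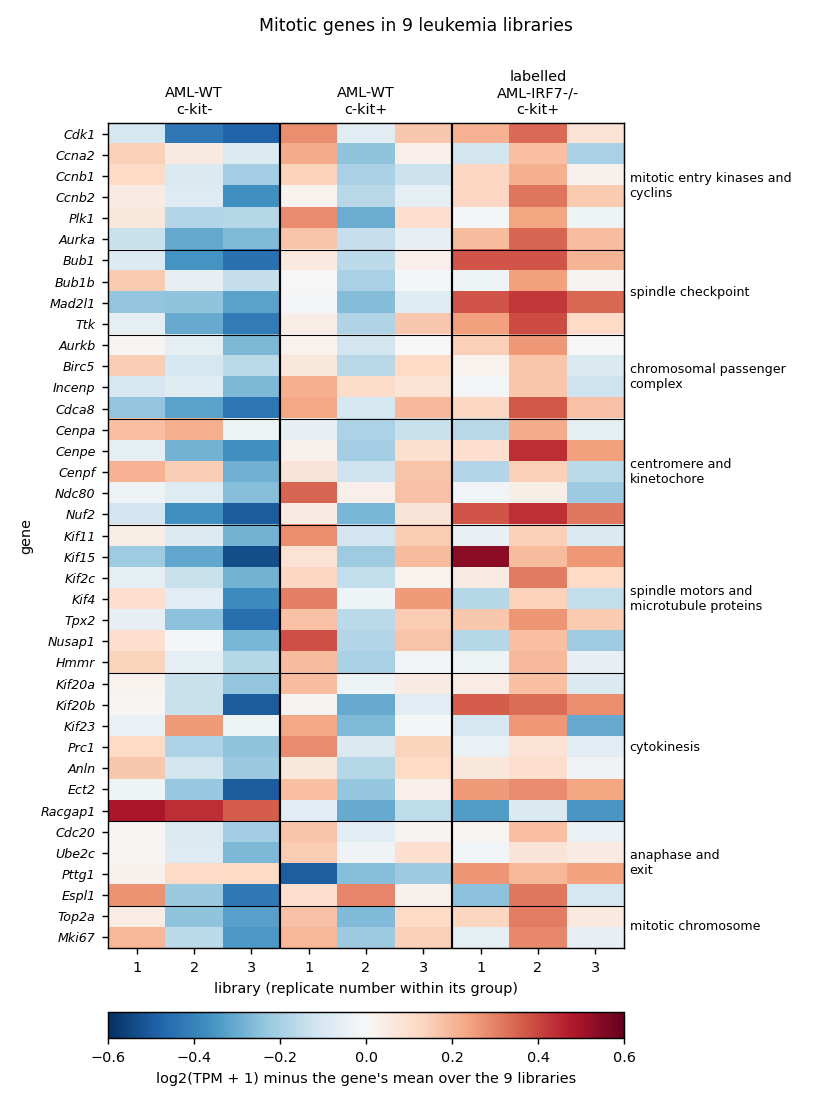
Level of each of the 39 genes (rows, by role) in the 9 libraries (columns, replicate number within the group) as log2(TPM + 1) minus the gene's mean over all libraries; red is above and blue below the mean. Column 3 of WT c-kit-, column 2 of WT c-kit+ and column 2 of the group labelled IRF7-/- shade most genes alike. Column 1 of WT c-kit- holds genes above and genes below their mean. Racgap1 is above its mean only in WT c-kit-, and Pttg1 is below its mean only in WT c-kit+.

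**Figure D3:**
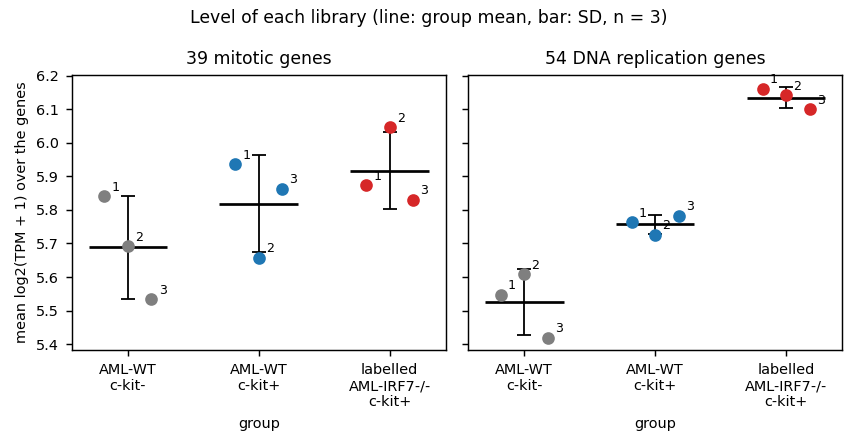
Mean log2(TPM + 1) of the 39 mitotic genes (left) and the 54 DNA replication genes (right) in each library (points, numbered by replicate), with the group mean (line) and SD (bar, n = 3). The groups overlap for the mitotic genes and are separate for the replication genes.

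The first comparison sets c-kit+ against c-kit- cells of the WT leukemia. In WT c-kit+ against WT c-kit-, 3 of the 39 genes rose (Cdk1, Cdca8 and Incenp), 3 fell (Racgap1, Pttg1 and Cenpa), and 33 did not pass the test (adjusted p under 0.05 in limma over all genes tested). Of all 13261 genes tested, 14% rose and 27.6% fell. The 39 genes had a median log2 fold change of 0.19, against -0.08 for all genes tested, and 32 of them had a positive change. None passed at 2-fold, where 4.83% of all genes rose and 9.61% fell. The share of the 39 genes that rose, 7.69%, was below that of all genes.

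Cdk1, the kinase that starts mitosis, was at 166, 133 and 128 TPM in WT c-kit- and at 217, 171 and 199.96 TPM in WT c-kit+. Every c-kit+ library was above every c-kit- library. The log2 fold change was 0.47 ± 0.13 (SE), with an adjusted p of 0.0262, and the call was lost in 5 of 14 alternatives. Cdca8 and Incenp encode borealin and the scaffold of the chromosomal passenger complex, which carries Aurora B to centromeres. Cdca8 was at 85.2, 80.3 and 74.3 TPM and then at 118, 93.5 and 115 TPM, a log2 fold change of 0.44 ± 0.11 (adjusted p = 0.0155). Incenp was at 113, 116 and 101 TPM and then at 142, 131.5 and 129 TPM, a log2 fold change of 0.28 ± 0.07 (adjusted p = 0.0204). The other subunits of that complex did not pass: Aurkb, its kinase, had a log2 fold change of 0.07 and Birc5 (survivin) of 0.05.

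Racgap1, a centralspindlin subunit that steers the contractile ring, went the other way. It was at 142, 138 and 130.2 TPM in WT c-kit- and at 96.9, 81.8 and 90.8 TPM in WT c-kit+, with no overlap. It fell by 0.60 ± 0.08 on the log2 scale (adjusted p = 0.00108) and passed in all 14 alternatives. Kif23, the motor that pairs with it in centralspindlin, did not pass, with a log2 fold change of -0.08 (95% confidence interval -0.42 to 0.27). Pttg1, securin, which keeps the protease separase inactive until anaphase, was at 31.3, 33.4 and 33.5 TPM in WT c-kit- and at 21.5, 25.6 and 26.3 TPM in WT c-kit+. It fell by 0.41 ± 0.09 on the log2 scale (adjusted p = 0.0124), and the groups did not overlap. Cenpa, the histone variant that marks centromeres, was at 138, 142 and 119 TPM and then at 117, 106 and 111 TPM. It fell by 0.25 ± 0.08 on the log2 scale (adjusted p = 0.0474), a call lost in 11 of 14 alternatives.

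The counts of this comparison depended on scaling and on single libraries. Quantile normalization and centring each library on its median moved the median of all genes from -0.08 to 0.07, and each then put 16 of the 39 genes higher and 1, Racgap1, lower, with member medians of 0.34. The same scalings put 23.0% of all genes higher and 19.5% or 19.6% lower. The number that rose was 5 without WT c-kit- library 1, 0 without WT c-kit+ library 1, 7 without WT c-kit+ library 2 and 1 (Incenp) without WT c-kit+ library 3. Racgap1 and Pttg1 fell in each of these 4 fits. By rank of libraries alone, 5 genes were higher in every c-kit+ library than in every c-kit- library (19.7% of all genes) and 3 were lower (34.7%).

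The second comparison sets the genotype labels against each other among c-kit+ cells. In the libraries labelled IRF7-/- against WT c-kit+, 6 of the 39 genes rose (Pttg1, Mad2l1, Kif20b, Nuf2, Bub1 and Ccnb2), none fell in limma and 33 did not pass. At an unadjusted p under 0.05, 9 genes were higher and 1 (Ndc80) was lower. Of 13238 genes tested, 31.9% rose and 16.1% fell, so the 15.4% of mitotic genes that rose were below the background. The median log2 fold change was 0.08, against 0.12 for all genes tested. None of the 39 genes passed at 2-fold in limma, where 6.3% of all genes rose and 5.39% fell.

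Pttg1 had its lowest levels in WT c-kit+, at 21.5, 25.6 and 26.3 TPM, against 37.1, 35.5 and 36.5 TPM in the libraries labelled IRF7-/-. The log2 fold change was 0.56 ± 0.09 (adjusted p = 0.00268), and the libraries did not overlap. Separase itself, the product of Espl1, did not pass, with a log2 fold change of -0.15 (95% confidence interval -0.52 to 0.22). Mad2l1, the checkpoint protein that sequesters CDC20, was at 59.8, 50.1 and 57.2 TPM in WT c-kit+ and at 78.4, 81.2 and 76.7 TPM in the libraries labelled IRF7-/-. Its log2 fold change was 0.50 ± 0.08 (adjusted p = 0.00246), again with no overlap.

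Kif20b, a kinesin of the midzone and cytokinesis, was at 32.4, 25.8 and 30.6 TPM and then at 41.5, 40.6 and 39.1 TPM. The log2 fold change was 0.44 ± 0.09 (adjusted p = 0.00821). Nuf2, a subunit of the NDC80 complex that grips microtubules, was at 49.2, 39.1 and 50.1 TPM and then at 61.95, 64.7 and 59.4 TPM. The log2 fold change was 0.43 ± 0.10 (adjusted p = 0.0139). Its partner Ndc80 was at 44.1, 35.2 and 39.1 TPM in WT c-kit+ and at 34.0, 35.3 and 29.5 TPM in the libraries labelled IRF7-/-, a log2 fold change of -0.25 (adjusted p = 0.0906). These 2 subunits of one complex thus had changes of opposite sign, and the difference between them was not tested. Bub1, a checkpoint kinase, had a log2 fold change of 0.34 ± 0.09 (adjusted p = 0.0170), and Ccnb2, cyclin B2, of 0.27 ± 0.08 (adjusted p = 0.0272).

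Pttg1, Mad2l1 and Kif20b passed in all 14 alternatives of this comparison, Nuf2 in all but 1, Bub1 in all but 4, and Ccnb2 in only 4. Rescaling without the 10 most abundant genes left 3 genes higher (Kif20b, Mad2l1 and Pttg1) and put 1 (Ndc80) lower. Ndc80 was also lower under quantile normalization, median centring and without WT c-kit+ library 2. Quantile normalization split all genes into 24.6% higher and 20.1% lower, against 31.9% and 16.1% as deposited. Of the 39 genes, 10 were higher in each library labelled IRF7-/- than in each WT c-kit+ library (39% of all genes), and 0 were lower (20.1%).

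The third comparison spans genotype label and c-kit at once, and shares its libraries with the other two. In the libraries labelled IRF7-/- against WT c-kit-, 15 of the 39 genes rose, 1 fell and 23 did not pass, where 30.7% of 13510 genes rose and 28.7% fell. The median log2 fold change was 0.16, against 0.03 for all genes tested. None of the 39 passed at 2-fold, where 8.4% of all genes rose and 11.9% fell. In 16 genes every library labelled IRF7-/- was above every c-kit- library (34.7% of all genes), and in 1 every library was below (32.4%).

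Nuf2 was at 43.7, 36.5 and 33.3 TPM in WT c-kit- and at 61.95, 64.7 and 59.4 TPM in the libraries labelled IRF7-/-, a log2 fold change of 0.71 ± 0.10 (adjusted p = 0.00128). Kif15, a motor that helps hold spindle poles apart, was at 55.1, 51.5 and 44.1 TPM and then at 93.8, 73.4 and 76.9 TPM, a log2 fold change of 0.68 ± 0.12 (adjusted p = 0.00276). In both genes the groups were apart. Mad2l1 was at 50.99, 50.7 and 47.9 TPM in WT c-kit-, against 76.7 to 81.2 TPM, a log2 fold change of 0.65 ± 0.06 (adjusted p = 0.000114). Bub1 was at 28.2, 23.2 and 21.7 TPM and then at 39.3, 39.2 and 34.7 TPM, a log2 fold change of 0.62 ± 0.11 (adjusted p = 0.00314). Mad2l1 and Bub1 act together at unattached kinetochores. Racgap1 was at 79.9, 95.3 and 79.3 TPM in the libraries labelled IRF7-/- and fell by 0.69 ± 0.08 on the log2 scale (adjusted p = 0.000548). It was the only one of the 39 genes that fell.

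The other genes that rose in this comparison were Cdca8 (log2 fold change 0.56), Cdk1 (0.55), Kif20b (0.54), the checkpoint kinase gene Ttk (0.51), the RhoA exchange factor gene Ect2 (0.51), the kinetochore motor gene Cenpe (0.50), the spindle pole kinase gene Aurka (0.48), its activator Tpx2 (0.44), Top2a (0.34), Ccnb2 (0.33) and the microtubule depolymerase gene Kif2c (0.32). Of the 16 calls, 13 held in all 14 alternatives. Top2a was lost in 6, Ccnb2 in 7 and Kif2c in 5. When each library was instead centred on the median of its own 39 mitotic genes, a scaling chosen after the data were seen, 5 genes were higher (Nuf2, Kif15, Mad2l1, Bub1 and Cdca8) and 12 lower. Racgap1 had a log2 fold change of -1.02 on that scale.

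**Figure D4:**
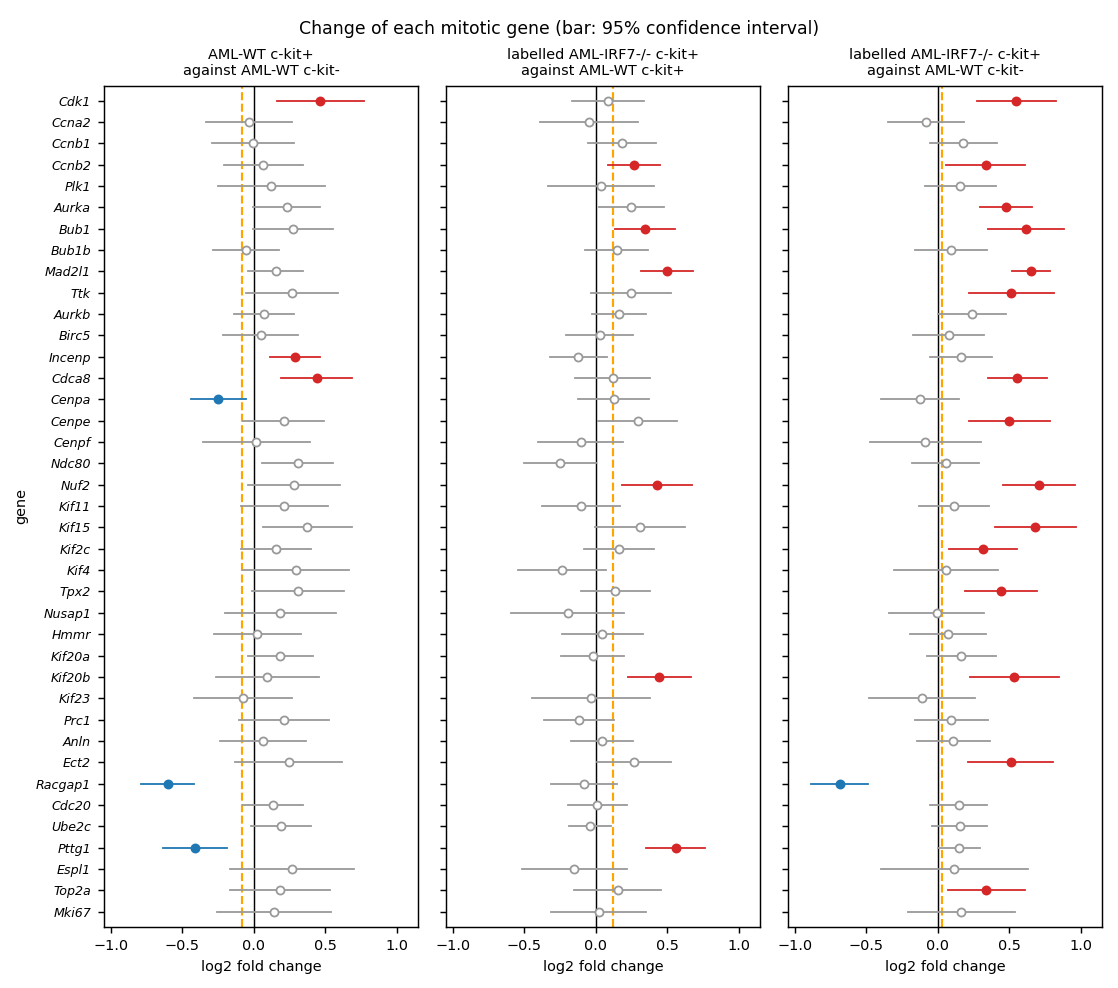
Log2 fold change (point) with its 95% confidence interval (bar) of each of the 39 genes in the 3 comparisons; filled red points rose and filled blue points fell at an adjusted p under 0.05, and open points did not pass. The dashed line is the median of all genes tested, at -0.08, 0.12 and 0.03 from left to right.

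Of the 6 genes of mitotic entry, 1 (16.7%), 1 (16.7%) and 3 (50%) rose in the 3 comparisons, where 14%, 31.9% and 30.7% of all genes did. Cdk1 rose in both comparisons against WT c-kit-, and Ccnb2 in the second (0.27) and in the third (0.33). Its partner Ccnb1, cyclin B1, passed in none: it was at 68.1, 58.8 and 54.04 TPM in WT c-kit-, at 68.95, 54.4 and 57.0 TPM in WT c-kit+ and at 68.2, 72.5 and 63.5 TPM in the libraries labelled IRF7-/-. The 3 groups overlapped. Plk1, a kinase of mitotic entry and exit, was at 52.7, 44.5 and 44.6 TPM, at 61.5, 40.7 and 54.04 TPM and at 49.9, 59.5 and 49.2 TPM in the same order, with no comparison past the test. Ccna2, cyclin A2, had log2 fold changes of -0.04, -0.05 and -0.08 in the 3 comparisons, none past the test. Aurka rose in the third comparison alone, with 0.23 and 0.25 in the others (adjusted p = 0.104 and 0.0706).

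Of the 4 checkpoint genes, Bub1, Mad2l1 and Ttk (75%) rose in the third comparison, where 30.7% of all genes did. Bub1b (BubR1) passed in none, with a largest log2 fold change of 0.15. Among the chromosomal passenger genes, Aurkb was at 102, 97.1 and 83.3 TPM in WT c-kit-, at 102, 93.1 and 101 TPM in WT c-kit+ and at 111, 121 and 101 TPM in the libraries labelled IRF7-/-. These ranges overlapped in each pair of groups, and in the third comparison its adjusted p was 0.0771. Birc5 varied least of all 39 genes. Of the 5 centromere and kinetochore genes, Nuf2 and Cenpe (40%) rose in the third comparison, against 30.7% of all genes. Cenpf and Ndc80 passed in none.

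Of the 7 genes of spindle motors and microtubule proteins, Kif15, Kif2c and Tpx2 (42.9%) rose in the third comparison, against 30.7% of all genes. None of these 7 genes passed in the other comparisons. Kif11, which pushes spindle poles apart, Kif4, a chromosome motor, the microtubule bundler Nusap1 and the spindle protein gene Hmmr passed in none, with log2 fold changes between -0.24 and 0.29. Of the 7 cytokinesis genes, Kif20a, Kif23, the midzone bundler Prc1 and the contractile ring protein gene Anln passed in none. Kif20b and Ect2 (28.6%) rose in the third comparison and Racgap1 (14.3%) fell, where 30.7% of all genes rose and 28.7% fell. Cdc20, the activator of the anaphase-promoting complex, and Ube2c, its ubiquitin-conjugating enzyme, passed in none, with largest changes of 0.14 and 0.19. Espl1 varied between 20.4 and 34.9 TPM with every group overlapping the others.

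Top2a was at 224, 184 and 173 TPM in WT c-kit-, at 246, 181 and 236 TPM in WT c-kit+ and at 238, 269 and 226 TPM in the libraries labelled IRF7-/-. Mki67, the gene of the proliferation marker Ki-67, was at 158, 123 and 108 TPM, at 158, 118 and 152 TPM and at 132, 168 and 133 TPM in the same order. Its groups overlapped throughout, and its log2 fold changes of 0.14, 0.02 and 0.16 had 95% confidence intervals of -0.26 to 0.54, -0.31 to 0.35 and -0.21 to 0.54.

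**Figure D5:**
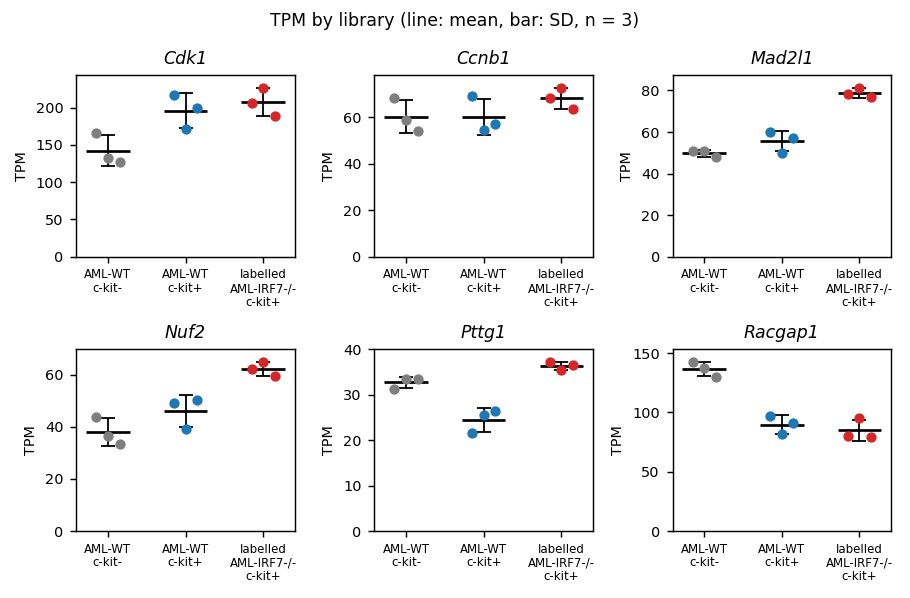
TPM (vertical axis, from 0) of 6 genes in each library (points) by group, with mean (line) and SD (bar, n = 3). Mad2l1 and Nuf2 are highest in the libraries labelled IRF7-/-, Pttg1 is lowest in WT c-kit+, Racgap1 is highest in WT c-kit-, and the groups of Ccnb1 overlap.

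Other genes of the same machinery were counted from lists. Their shares are read against the 14%, 31.9% and 30.7% of all genes that rose in the 3 comparisons and the 27.6%, 16.1% and 28.7% that fell. Of 38 other kinetochore and centromere genes, 12 (31.6%), 13 (34.2%) and 22 (57.9%) rose and 2, 2 and 1 fell in the 3 comparisons, so the share that rose in the second was near that of all genes. Zw10, which recruits dynein to kinetochores, went from a mean of 33.5 TPM in WT c-kit- to 55.2 TPM in WT c-kit+ (log2 fold change 0.71, adjusted p = 0.00164) and was at 34.1 TPM in the libraries labelled IRF7-/- (-0.68 against WT c-kit+, adjusted p = 0.000964). Of 35 other spindle and cytokinesis genes, 4 (11.4%), 6 (17.1%) and 14 (40%) rose and 2, 2 and 2 fell, so the first 2 shares that rose were below those of all genes. Plk4, the kinase of centriole duplication, was at means of 22.6, 26.6 and 44.9 TPM in the 3 groups, and rose in the second (0.74, adjusted p = 0.00194) and the third comparison (0.96, adjusted p = 5.7e-05).

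Of 18 condensin and cohesin genes, 6 (33.3%), 3 (16.7%) and 8 (44.4%) rose and 0, 1 and 0 fell in limma. Of 17 genes of the anaphase-promoting complex, 1 (5.88%), 5 (29.4%) and 7 (41.2%) rose and 2, 1 and 3 fell, and the first 2 shares that rose were at or below those of all genes. Ube2s, which extends ubiquitin chains with that complex, fell by 0.38 (adjusted p = 0.00302) and by 0.28 (adjusted p = 0.00321) on the log2 scale in the second and in the third comparison. Of 15 regulators of mitotic entry and exit, 5 (33.3%) rose in each comparison and 3, 4 and 4 fell. Cdc25a, a phosphatase that activates cyclin-dependent kinases, rose by 1.35 (adjusted p = 0.000112) in the first comparison, and Cks2, a small subunit of those kinases, fell by 1.00 (adjusted p = 0.00188) in the second, from a mean of 558.5 TPM to 275 TPM.

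Of 16 transcription regulators of late cell cycle genes, 2 (12.5%), 5 (31.2%) and 5 (31.2%) rose and 3, 1 and 2 fell, so the shares that rose were near those of all genes. Mybl2, B-Myb, rose in the second comparison (0.50, adjusted p = 0.00148), from a mean of 33.5 TPM to 47.7 TPM. Of the 54 DNA replication genes, 25 (46.3%), 44 (81.5%) and 49 (90.7%) rose and 2, 0 and 0 fell in limma, with median log2 fold changes of 0.26, 0.39 and 0.63, where the mitotic genes had 0.19, 0.08 and 0.16. In the second comparison 81.5% of the replication genes, 15.4% of the mitotic genes and 31.9% of all genes rose. The difference between the lists was not tested.

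Some values carry a limit from counting. No strand-marking step is named for the library kit, and 10 of the 39 genes have exons that overlap another gene in GENCODE M21, among them Plk1, Cdca8, Top2a, Ccna2, Kif4 and Cdc20, so their reads and those of the overlapping gene may not be told apart. The processed copy Ccnb2-ps was at 0.56 to 3.66 TPM, against 74.7 to 121 TPM for Ccnb2, and Ccnb1-ps and Kif4-ps were at most at 0.09 TPM.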

How the data were processed

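RNA-seq was carried out on 9 sorted leukemia samples, and the authors deposited 1 table of 55536 genes. The deposited values were taken as TPM because each library sums to between 987468 and 992231. The aligner, its settings and the genome build are not given in the sources used here. The table's gene identifiers match GENCODE M21 (GRCm38) throughout. TPM keep no depth, so precision rests on the spread between the 3 libraries of a group. Samples were grouped by their titles, and each column was matched to its sample by name.

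Each pair of groups was compared with limma 3.58.1 in R 4.3.3 (eBayes with trend) on log2(TPM + 1), over genes that reached 1 TPM in 3 or more of the 6 libraries, with Benjamini-Hochberg adjustment over all genes tested and a threshold of 0.05. Fold changes are on the log2(TPM + 1) scale. The script was tested on simulated data. Exact permutation tests of 3 libraries against 3 cannot go below p = 0.1 and were not used. Every gene of the set is named, and each library's value is given for the 4 largest changes in each direction among genes past the threshold and for Cdk1, Ccnb1, Aurkb, Plk1, Top2a and Mki67. From each further list at most 2 genes with the smallest adjusted p in a comparison could be named. The genes and lists were chosen with earlier results of these data known. The 14 alternatives of each comparison were no filter, a pseudocount of 0.1, filtering at 5 TPM, quantile normalization, median centring, rescaling without the 10 most abundant genes, a fit of all 9 libraries, a replicate block and leaving out each library in turn. The 10 genes left out in the rescaling were those with the highest mean over all 9 libraries. Promoters were read from RefSeq windows of GRCm38.p6, and motifs were searched with Python 3.11.15.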

Additional observations from a re-analysis of the deposited data

How the results depend on the processing

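None of the 28 calls on single genes changed direction in the 14 alternatives of its comparison. The changed filters, the fit of all 9 libraries and the replicate block leave a fold change as it is, so they could not alter its direction. Of the 6, 6 and 16 calls in the 3 comparisons, 1, 3 and 13 passed in all 14 alternatives. For WT c-kit+ against c-kit-, 5 genes rose when the values were rescaled without the 10 most abundant genes, 5 in the fit of all 9 libraries and 5 by unadjusted p, against 3 as reported. Quantile normalization and median centring gave 16 each, with 1 that fell and member medians of 0.34, and centring on the median of the 39 genes, chosen after seeing the data, gave 0. Leaving out single libraries gave 0 to 7. For the libraries labelled IRF7-/- against WT c-kit+, rescaling left 3 that rose and 1 that fell, centring on the 39 genes 1 and 1, and quantile normalization, median centring and unadjusted p each 1 that fell, and unadjusted p 9 that rose. Leaving out single libraries gave 0 to 1 that fell. Against WT c-kit-, centring on the 39 genes gave 5 that rose and 12 that fell. The causes were not tested.

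The labels do not say whether same-numbered libraries of different groups belong together. Correlations between same-numbered libraries ran from -0.06 to 0.26, and those between libraries of different numbers from -0.20 to 0.16. These values do not settle whether the samples were paired. With replicate number as a block, 5, 5 and 17 of the 39 genes passed, against 6, 6 and 16 without it. TPM keep no depth, so differences under the spread of 3 libraries could not be seen.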

Other observations

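The 34 genes with a promoter entry were also divided by the CHR match near the start, after the values were seen and with no test. In the libraries labelled IRF7-/- against WT c-kit+, the 26 genes with a match had log2 fold changes from -0.25 to 0.44 with a median of 0.04, and 3 of them rose (Bub1, Ccnb2 and Kif20b). The 8 genes without one ranged from -0.20 to 0.56 with a median of 0.24, and 3 of them rose (Mad2l1, Nuf2 and Pttg1). Of all genes tested in this comparison 31.9% rose. Against WT c-kit-, where 30.7% of all genes rose, 10 of the 26 and 4 of the 8 rose, with medians of 0.15 and 0.25. In WT c-kit+ against c-kit- the medians were 0.19 and 0.15. The split depends on the RefSeq start used. Among the 8 genes, the starts of Mad2l1, Pttg1 and Kif2c lie 169, 270 and 3867 bases from the GENCODE M21 gene starts. Among the 26, those of Cdca8 and Kif4 lie 2394 and 328 bases away. Whether other starts would move genes between the 2 classes was not tested.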
